A study of Mus musculus with 18 samples.

Results

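The cytosolic ribosomal protein genes encode the protein part of the ribosome that translates nuclear mRNAs. They were taken as every row whose symbol has the form of an *Rpl*, *Rps*, or *Rplp* name with a number and an optional a, x, or l ending, together with *Rpsa*, and rows named as pseudogenes with a -ps ending were left out. This rule gave 89 of the 55491 rows of the gene table. They comprised 43 genes of the large subunit, 31 of the small subunit, 3 of the P stalk (*Rplp0*, *Rplp1*, and *Rplp2*), 6 protein-coding paralogs (*Rpl3l*, *Rpl10l*, *Rpl39l*, *Rpl22l1*, *Rps27l*, and *Rpl7l1*), and 6 rows that the annotation calls pseudogenes despite their symbols.

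The libraries were made from B cells of female BALB/cJ mice aged 10 to 12 weeks, all of which had been sensitized i.p. with 20 μg OVA (ovalbumin, an egg white allergen) and 1 mg alum on days 0 and 14. On days 28 and 42 the mice received i.v. PBS (100 μL), soluble OVA (100 μg), or 2.5 mg of OVA NPs, which are polymer nanoparticles that encapsulate OVA. On day 44, before any oral challenge, B cells were isolated from spleen and Peyer's patches, the lymphoid tissue of the gut wall, by removing other cells magnetically. Each of the 6 combinations of tissue and treatment had 3 libraries, and every mouse was sensitized, so no group shows an unsensitized animal. The labels call the libraries biological replicates without saying whether each was 1 mouse, and they name no batch, so the p-values measure the spread between these libraries. Libraries held 14177253 to 30052297 counts. The lowest total was that of Peyer's patch PBS replicate 2, whose library number, 19, stands out of order with its group. The labels do not say why.

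Ribosomal proteins are needed in nearly equal amounts, and their genes are regulated together with rRNA synthesis by growth signals such as Myc and mTOR. Most of their mRNAs begin with a C followed by a run of pyrimidines, the 5′ terminal oligopyrimidine (TOP) motif, through which mTOR and Larp1 set how strongly they are translated. B cells that enter germinal centers grow and divide quickly, which requires many new ribosomes, whereas resting follicular B cells make few. The abundance of mRNA measured here does not show how strongly the mRNAs were translated.

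The transcription starts of 6 members are printed because they show a run as in the TOP motif at the annotated first base in genes of both subunits. *Rps27l*, the member with the largest differences from PBS in spleen, has no run at that base. Each window, from the RefSeq annotation of GRCm38.p6, has 20 bases before and 10 bases from the annotated first base, read 5′ to 3′, and the capitals mark the run of pyrimidines that begins with C at that base. The first listed start of *Rps27l* is shown, and neither of its 2 listed starts has such a run. In the window shown, a C and further pyrimidines follow directly after the first base, so the motif itself may be present. A missing run at the first base is not particular to *Rps27l*, as only 14 of the 64 members with a matched promoter have the run at an annotated first base.
*Rps6* (chr4:86857358-86857387 on the minus strand): gggttaagcggaagtcgggcCTCTTTTTCg
*Rpl15* (chr14:18270977-18271006 on the minus strand): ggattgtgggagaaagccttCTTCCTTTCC
*Rpl28* (chr7:4792945-4792974 on the plus strand): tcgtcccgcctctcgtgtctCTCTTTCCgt
*Rpl38* (chr11:114668560-114668589 on the plus strand): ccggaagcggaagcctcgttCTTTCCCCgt
*Rps27* (chr3:90213639-90213668 on the minus strand): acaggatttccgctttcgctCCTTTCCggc
*Rps27l* (chr9:66946066-66946095 on the plus strand): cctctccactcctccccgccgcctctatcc

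RefSeq promoter sequences of 300 bases, 250 before and 50 from the first base, were matched for 64 of the 89 members. A C with at least 4 further pyrimidines stood exactly at the annotated first base in 14 of these 64 members. By promoter this was 14 of 76 (18.4%), against 823 of all 32851 promoters (2.51%). The letters CCGGAAG, searched on both strands, were found in 27 of the 76 promoters (35.5%) and in 8.86% of all promoters. The E-box letters CACGTG, which Myc can bind, were found in 8 of the 76 (10.5%) and in 7.15% of all promoters. The motif at the first base did not sort the members by their values: in spleen, the median log2 fold change with OVA NPs was 0.23 for 13 subunit and stalk genes with the run and 0.21 for 44 without it, and with soluble OVA it was 0.32 for both. An annotated start is 1 of several possible first bases, so these counts describe the annotation and not the 5′ ends in these cells.

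Ribosomal protein genes were among the most abundant transcripts in every library. Normalized levels are given as CPM, counts scaled to a common library size with TMM factors, which adjust for differences in composition. Of the 89 members, 72 exceeded 100 CPM in all 18 libraries and 4 were under 1 CPM in all of them. These 4 were *Rpl10l*, at 0 counts everywhere, *Rpl3l* with at most 5 counts, *Rpl39l* with at most 11, and the pseudogene row *Rpl32l* with at most 4. Another pseudogene row, *Rps12l1*, had 0 counts in 14 libraries and up to 74 in the other 4. The zero of *Rpl10l*, a retrogene known from testis, allows a level of up to 0.0998 to 0.212 CPM depending on the library, with 3 counts as the limit and only counting error is covered.

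Per kilobase of the principal transcript, which allows genes to be compared, levels averaged over all libraries ran from 193 CPM per kb for *Rps20* to 1934 CPM per kb for *Rps12* among the subunit and stalk genes with a principal transcript in the annotation, apart from *Rpl29* (13.7 CPM per kb) and *Rps2* (47.4 CPM per kb). *Rpl7*, *Rpl19*, *Rpl26*, *Rpl41*, and *Rps24* had none and are not included. Rows named as *Rps2* pseudogenes held 94.0% of the counts of the *Rps2* family, and the share was 71.7% for *Rps18* and 50.7% for *Rpl3*. Reads from a spliced gene and its processed copies are nearly identical, so levels of these members are uncertain. The paralog *Rps27l* stood at 44.7 CPM per kb and *Rpl7l1* at 72.6 CPM per kb.

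Summed over the 89 rows, the share of a library's counts in ribosomal protein genes was higher in spleen after both treatments than after PBS, and in Peyer's patches it was higher after soluble OVA and lower after OVA NPs. In spleen it was 4.87%, 4.79%, and 5.17% with PBS (4.94% ± 0.2, SD, n = 3). With OVA NPs it was 5.6%, 5.72%, and 5.5% (5.61% ± 0.11), and with soluble OVA 6.72%, 5.86%, and 5.6% (6.06% ± 0.586). All 6 treated spleen libraries were above the 3 PBS libraries, and soluble OVA replicate 1 was the highest of all 18. In Peyer's patches the share was 4.36%, 4.36%, and 4.7% with PBS (4.47% ± 0.196), 5.15%, 4.73%, and 4.79% with soluble OVA (4.89% ± 0.227), and 4.17%, 4.22%, and 4.2% with OVA NPs (4.2% ± 0.0252). The soluble OVA and OVA NP libraries lay on opposite sides of the PBS libraries without overlap. In bulk samples, fewer cells of a type and less RNA per cell cannot be told apart. Mitochondrially encoded genes took 5.41% to 7.67% of counts in the PBS and 9.08% to 9.8% in the OVA NP libraries of Peyer's patches. With these and immunoglobulin genes left out of the totals, the means in Peyer's patches were 4.82% ± 0.223, 5.21% ± 0.218, and 4.67% ± 0.0436 for PBS, soluble OVA, and OVA NPs. The PBS libraries (4.64% to 5.07%) then overlapped both the OVA NP libraries (4.64% to 4.72%) and the soluble OVA libraries (5.06% to 5.46%).

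**Figure D1:**
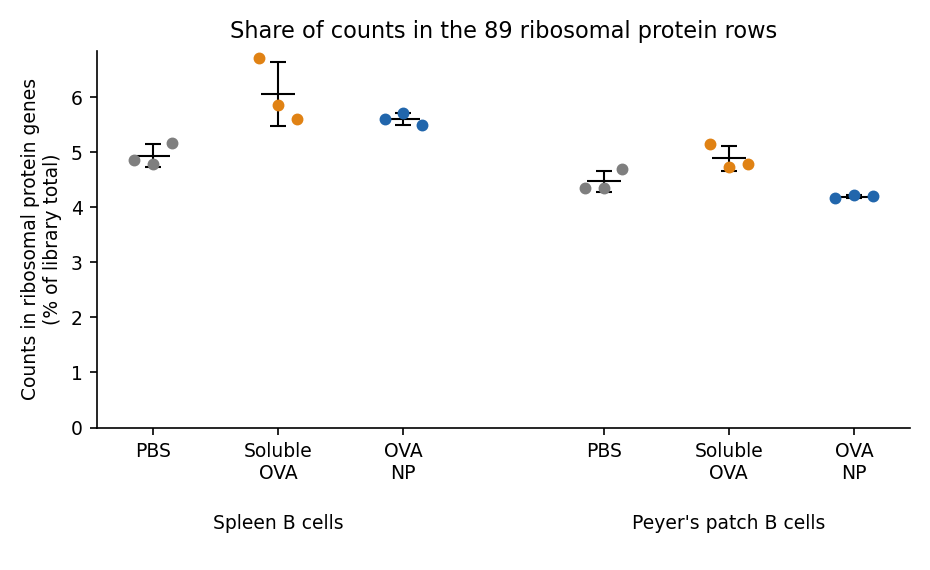
Share of each library's counts in the 89 ribosomal protein rows, in percent of the library total (y axis), for 3 libraries in each of 6 groups (x axis). Points are libraries, and bars are the mean ± SD. The treated spleen libraries lie between 5.5% and 6.72%, above the PBS libraries at 4.79% to 5.17%, and the OVA NP libraries of Peyer's patches are the lowest at 4.17% to 4.22%.

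The first comparison was between splenic B cells from mice given OVA NPs and those given PBS. Of the 84 members that passed the count filter, 22 were called higher and 0 lower, where called means an adjusted p under 0.05 in edgeR's quasi-likelihood test, Benjamini-Hochberg adjusted over all genes, and a log2 fold change above 0.25 in size. Across all 14200 genes tested, 8.6% were called higher and 6.35% lower. The median log2 fold change of the 84 members was 0.21, compared with 0.00 for all genes tested, and 83 of the 84 estimates were above 0. In 68 members the 3 OVA NP libraries all exceeded the 3 PBS libraries, and 18.7% of all genes did so in this direction. The called members were 15 of 43 large subunit genes, 5 of 31 small subunit genes, 1 of 3 P stalk genes (*Rplp0*), and the paralog *Rps27l*. Without the fold cutoff 56 members passed, against 20.1% of all genes.

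*Rps27l* (chr9:66946086-66949516, plus strand, GRCm38), a p53-responsive paralog of the small subunit gene *Rps27* (chr3:90212522-90213651, minus strand), had the largest difference. Its levels were 17.5, 15.8 and 16.1 CPM with PBS and 27.9, 27.5 and 20.2 CPM with OVA NPs, a log2 fold change of 0.61 (SE 0.12, adjusted p = 0.00328). All OVA NP libraries were above all PBS libraries, although replicate 3 was closer to them than the others. *Rps27* itself, with 393, 334 and 391 CPM and 358, 417 and 391 CPM, overlapped between the groups and was not called, at 0.07 (SE 0.07, adjusted p = 0.561). The parent gene and its paralog can be set side by side as a ratio, and *Rps27l* stood at 44.4 ± 2.96 counts per 1000 counts of *Rps27* with PBS and 65.2 ± 13.1 with OVA NPs.

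Among the large subunit genes, *Rpl24*, whose protein bridges the large to the small subunit, differed most. It was 137, 153 and 148 CPM with PBS and 201, 213 and 197 CPM with OVA NPs, or 0.49 (SE 0.06, adjusted p = 4.84e-05). *Rpl41*, which encodes the smallest ribosomal protein, was 171, 154 and 173 CPM and 219.7, 246 and 207 CPM, or 0.44 (SE 0.07, adjusted p = 0.000586). *Rpl39*, whose protein lines the exit tunnel of the nascent chain, was 133, 127 and 126 CPM and 163, 176 and 165 CPM, or 0.39 (SE 0.05, adjusted p = 0.00014). In each of these genes the lowest OVA NP library exceeded the highest PBS library. *Rpl37* rose from 183 ± 19.9 to 235 ± 25 CPM, or 0.36 (SE 0.09, adjusted p = 0.0266), with a larger spread between replicates, and only 1 of the 6 leave-one-out fits kept this call. *Rpl15*, *Rpl38*, and *Rpl28* had log2 fold changes of 0.32, 0.32, and 0.32 with adjusted p-values of 0.000781, 0.00603, and 0.00131. *Rpl38* is known for the translation of *Hox* mRNAs in embryos.

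Of the small subunit, *Rps26*, whose protein contacts mRNA at the exit channel, was 407, 381 and 421 CPM with PBS and 519, 541 and 505 CPM with OVA NPs, or 0.38 (SE 0.06, adjusted p = 0.000344). *Rps12* was 921, 861 and 919 CPM and 1133, 1107 and 1142 CPM, or 0.33 (SE 0.06, adjusted p = 0.000748). Neither gene's groups overlapped. *Rplp0* (chr5:115559467-115563727, plus strand), the scaffold of the stalk that recruits elongation factors and a common reference gene in quantitative PCR, was 1081, 1152 and 1253 CPM and 1451, 1413 and 1382 CPM, or 0.29 (SE 0.06, adjusted p = 0.00478). *Rpl22*, which is needed for lymphocyte development, rose from 179 ± 3.74 to 215 ± 7.56 CPM, or 0.27 (SE 0.05, adjusted p = 0.00172). Its paralog *Rpl22l1*, whose mRNA the Rpl22 protein represses, was 46.7, 49.5 and 42.1 CPM with PBS and 46.3, 54.4 and 57.2 CPM with OVA NPs, and these groups overlapped (0.20, SE 0.08, adjusted p = 0.102).

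The second comparison was between soluble OVA and PBS in spleen, which shares its PBS libraries with the first. Here 65 of 84 members were called higher and 0 lower, against 10.5% of the 14128 genes tested called higher. The median log2 fold change of the members was 0.32 (all genes, -0.01), and all 84 estimates were above 0, from 0.10 to 0.60. They included 39 of 43 large subunit genes, 23 of 31 small subunit genes, 2 of 3 P stalk genes, and *Rps27l*. Without the fold cutoff 69 members passed, against 20.3% of all genes. The count depended on single libraries and was 31 without PBS replicate 1, 28 without PBS replicate 2, and 31 without soluble OVA replicate 1, which had the highest share of ribosomal protein counts, and it was 36 with an offset for gene length.

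*Rps27l* was again the member with the largest estimate, at 26.6, 22.6 and 25.5 CPM with soluble OVA, or 0.60 (SE 0.09, adjusted p = 0.000513) against PBS. *Rps26* was 659, 519 and 549 CPM (0.52, SE 0.08, adjusted p = 0.000593), and *Rps12* was 1481, 1219.6 and 1083 CPM (0.49, SE 0.09, adjusted p = 0.00271). In all 3 genes, no soluble OVA library was as low as a PBS library, and in the last 2 replicate 1 was the highest. *Rpl36a*, an X-linked large subunit gene, rose from 249 ± 7.01 to 345 ± 53.4 CPM, or 0.47 (SE 0.09, adjusted p = 0.00206). *Rpl41* rose to 228 ± 27.1 CPM, or 0.46 (SE 0.08, adjusted p = 0.000972). *Rplp0* was 1748, 1530.4 and 1417 CPM (0.43, SE 0.08, adjusted p = 0.00256), and *Rpl22* rose to 234 ± 22 CPM (0.39, SE 0.07, adjusted p = 0.00105). *Rpl22l1* (0.22, SE 0.08, adjusted p = 0.0756) and *Rps27* (0.10, SE 0.09, adjusted p = 0.485) were not called, and their groups overlapped.

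OVA NPs and soluble OVA were also compared with each other in spleen. By edgeR 0 of 84 members were called, 0 had an unadjusted p under 0.05, and DESeq2 called 0 as well. Few genes of any kind were called in this comparison (33 of 13840, 0.238%, with 0.137% higher and 0.101% lower). The median log2 fold change of the members was -0.11 for OVA NPs against soluble OVA, and 77 of 84 estimates were below 0. The libraries did not overlap in 1 member that was higher with OVA NPs and 5 that were lower, against 6.58% and 7.5% of all genes. The 95% confidence interval of this difference was -0.33 to 0.05 for *Rplp0* and -0.25 to 0.28 for *Rps27l*, so modest differences in either direction were not excluded by it.

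**Figure D2:**
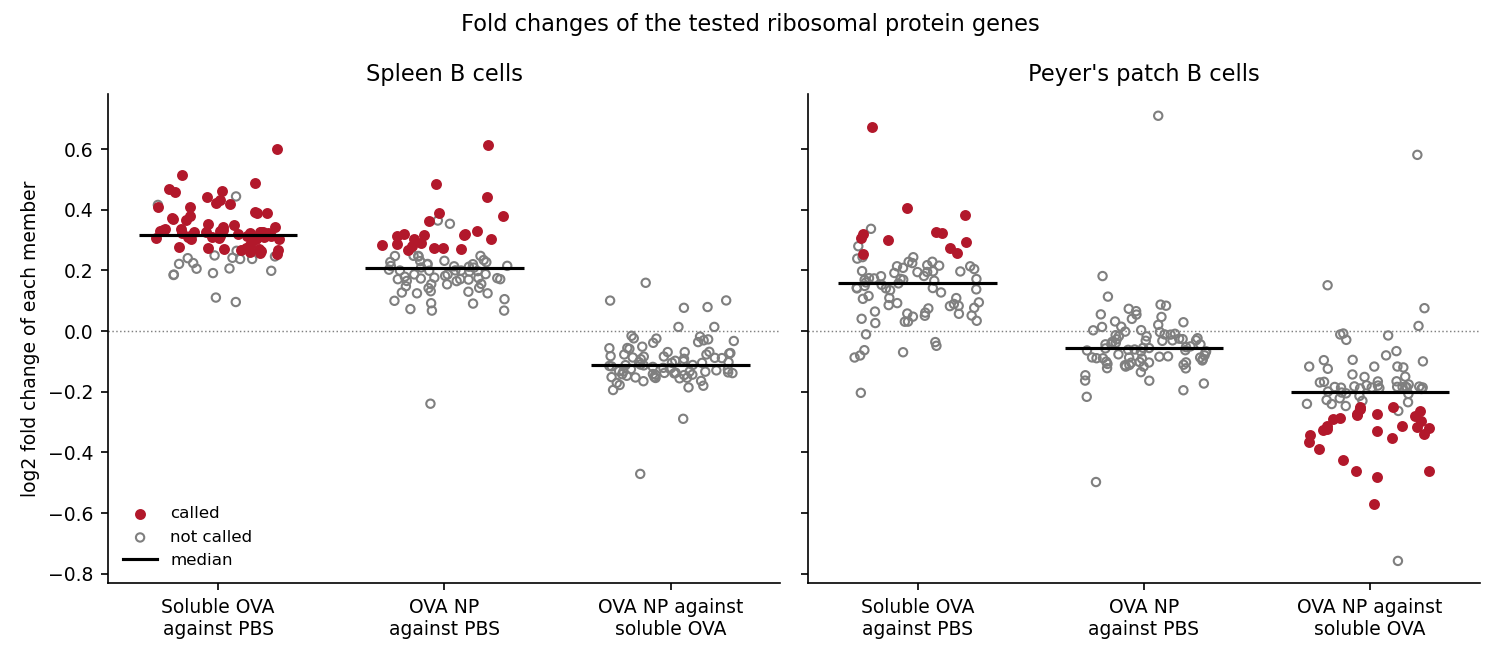
Log2 fold change of each of the 84 tested ribosomal protein genes (y axis) in 3 comparisons per tissue (x axis). Filled points were called (adjusted p under 0.05 and a log2 fold change above 0.25 in size), open points were not, and lines are medians. In spleen the medians against PBS are 0.32 for soluble OVA and 0.21 for OVA NPs, and in Peyer's patches they are 0.16 and -0.06.

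In Peyer's patches, OVA NPs and PBS were not distinguished by any member. By edgeR 0 of 84 members were called, as were 0 of all 15798 genes tested (0%), while 5 members and 1573 genes had an unadjusted p under 0.05 and DESeq2 called 0 members and 149 genes. All 5 of these members had lower estimates with OVA NPs. The median log2 fold change of the members was -0.06, with 66 of 84 estimates below 0. In 21 members all OVA NP libraries were below all PBS libraries and in 1 above, against 10.5% and 6.79% of all genes. *Rplp0* was 1218, 1225 and 1249.7 CPM with PBS and 995, 1063 and 1146 CPM with OVA NPs. Its groups did not overlap, but its log2 fold change of -0.19 (SE 0.07, adjusted p = 0.399) did not pass. *Rps27l* was 18.7, 17.6 and 18.4 CPM and 18.8, 17.5 and 22.6 CPM, which overlapped (0.11, SE 0.12, adjusted p = 0.77). *Rpl22* (-0.02), *Rpl22l1* (-0.01), and *Rps27* (-0.04) had log2 fold changes near 0, smaller than their standard errors, and all 3 changed sign under other settings.

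With soluble OVA in Peyer's patches, 12 of 84 members were called higher than with PBS and 0 lower, and 13.5% of the 15792 genes tested were called higher. The members' share, 14.3%, was close to that of all genes, although 76 of 84 estimates were above 0 with a median of 0.16 (all genes, -0.02). The 12 were *Rps27l*, *Rplp0*, 3 small subunit genes, and 7 large subunit genes. *Rps27l* had 29.5, 30 and 28.6 CPM with soluble OVA, above every PBS library, and the largest difference of any member at 0.67 (SE 0.09, adjusted p = 0.000753). Its ratio to *Rps27* was 61.8 ± 7.42 per 1000 counts with PBS, 113 ± 10.7 with soluble OVA, and 69.1 ± 15.3 with OVA NPs. *Rpl15* was 387, 344 and 378 CPM with PBS and 530.2, 479 and 475 CPM with soluble OVA, or 0.41 (SE 0.08, adjusted p = 0.00459). *Rpl28* rose from 459.6 ± 38 to 605 ± 19.3 CPM (0.38, SE 0.08, adjusted p = 0.0073), *Rpl7a* from 774 ± 14.2 to 979.6 ± 63.7 CPM (0.33, SE 0.07, adjusted p = 0.00832), and *Rpl41* from 180.1 ± 4.48 to 228 ± 18.8 CPM (0.32, SE 0.08, adjusted p = 0.0116). The number called was 6 without PBS replicate 1, 27 without PBS replicate 3, and 19 without soluble OVA replicate 3.

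Against soluble OVA, OVA NPs gave lower levels in Peyer's patches. Of the 84 members, 28 were called lower and 0 higher, with 16.3% of all 15599 genes called lower and 30.1% in either direction. The median log2 fold change was -0.20 (all genes, 0.03), and in 66 members all OVA NP libraries were below all soluble OVA libraries, compared with 25.6% of all genes. Among the called members *Rps27l* differed most, at -0.57 (SE 0.11, adjusted p = 0.00528), and the pseudogene rows *Rpl6l* (-0.76) and *Rps4l* (0.58), which were not called, had larger estimates. *Rpl28* was 627, 595 and 593 CPM with soluble OVA and 388, 464 and 439.9 CPM with OVA NPs, or -0.48 (SE 0.08, adjusted p = 0.0033). *Rpl15* was 330.4, 367 and 371 CPM with OVA NPs (-0.46, SE 0.09, adjusted p = 0.00394), and *Rplp0* fell from 1605, 1461 and 1379 CPM to 995, 1063 and 1146 CPM (-0.46, SE 0.09, adjusted p = 0.00617). None of these groups overlapped. *Rpl7a* fell to 725 ± 34.1 CPM (-0.42, SE 0.09, adjusted p = 0.00605). The count was 16 without soluble OVA replicate 1, 16 without soluble OVA replicate 2, and 12 with an offset for gene length.

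**Figure D3:**
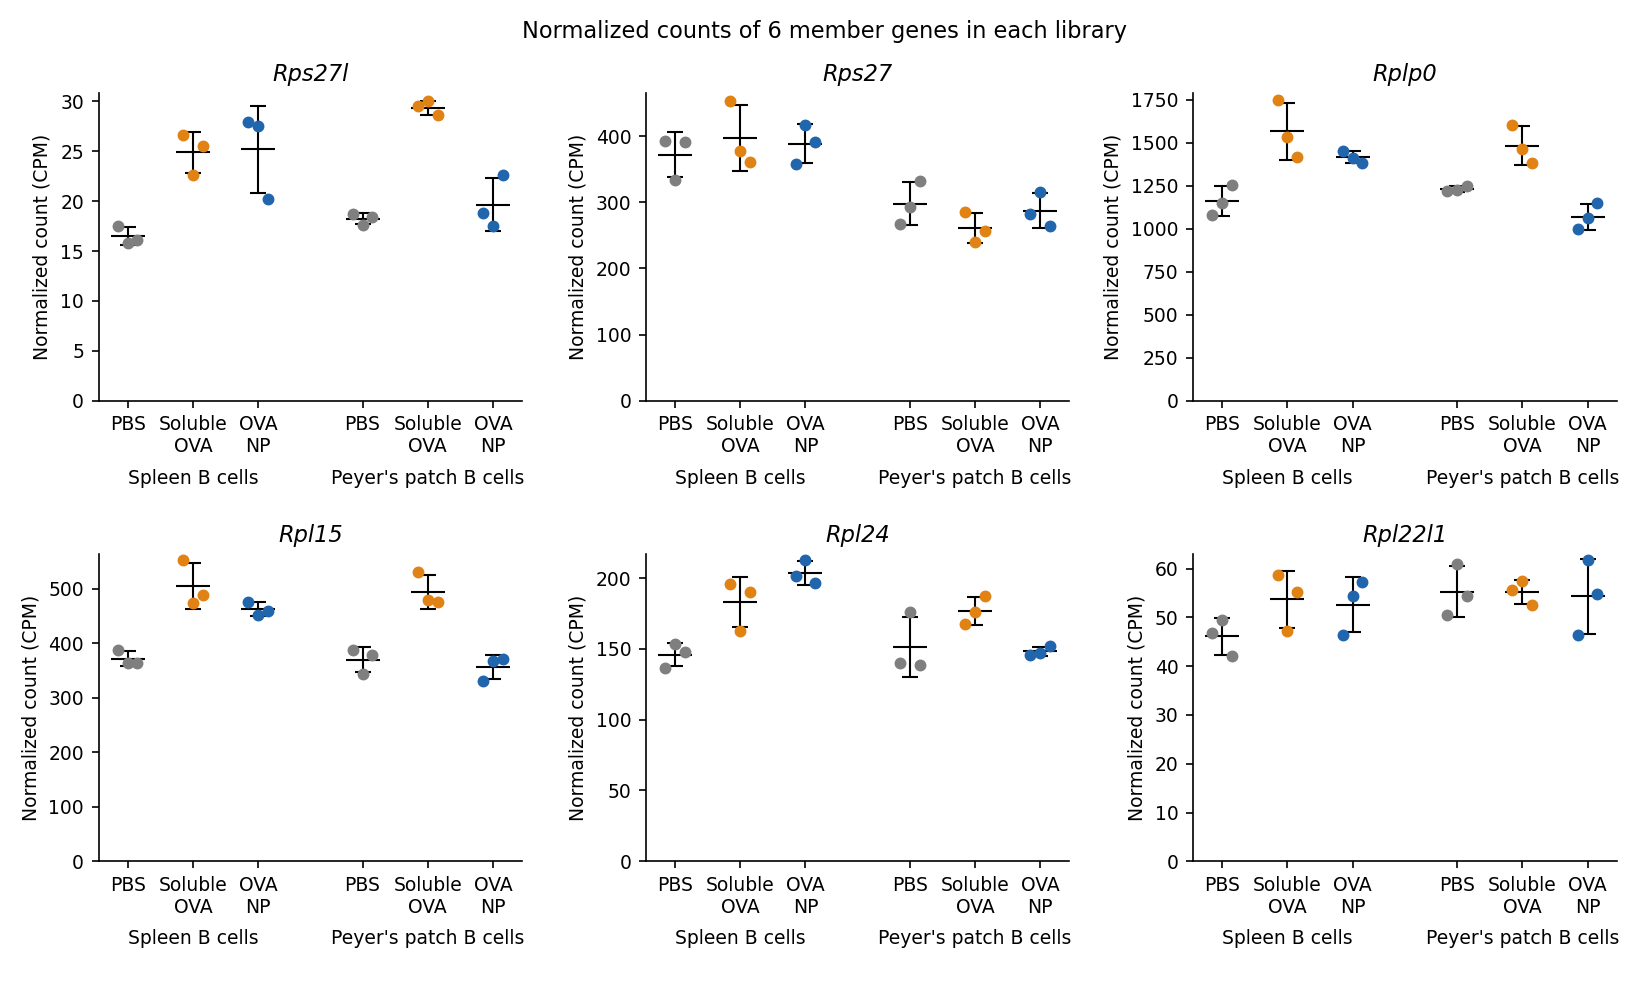
TMM-normalized counts in CPM (y axes, from 0) of *Rps27l*, *Rps27*, *Rplp0*, *Rpl15*, *Rpl24*, and *Rpl22l1* in each of the 18 libraries, with bars for the mean ± SD of 3 libraries. In Peyer's patches the soluble OVA libraries of *Rps27l* (28.6 to 30 CPM) stand above all PBS and OVA NP libraries, and the groups of *Rpl22l1* overlap within each tissue.

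Whether the effect of each treatment differed between the tissues was tested as an interaction across 12 libraries. For OVA NPs, 15 of 84 members were called, all with a lower effect in Peyer's patches than in spleen, and 3.54% of the 16619 genes tested were called in that direction, 0.872% in the other, and 4.42% in all. The median difference of the members was -0.25 (all genes, 0.00), and 83 of 84 estimates were below 0. The 15 members were 10 large subunit genes (*Rpl3*, *Rpl4*, *Rpl6*, *Rpl7*, *Rpl7a*, *Rpl10a*, *Rpl15*, *Rpl23a*, *Rpl24*, and *Rpl41*), 4 small subunit genes (*Rps3*, *Rps6*, *Rps26*, and *Rpsa*), and *Rplp0*, of which those outside the 5 described next are named after their values were seen. Among the called members *Rpl24* had the largest difference, -0.49 (SE 0.11, adjusted p = 0.0253), and *Rps27l* (-0.49) and the pseudogene rows *Rpl6l* (-0.85) and *Rps4l* (0.96) were not called. *Rpl24* rose in spleen and was 139.8, 176 and 138 CPM with PBS and 146, 147 and 152 CPM with OVA NPs in Peyer's patches. For *Rplp0* the difference was -0.47 (SE 0.09, adjusted p = 0.00992), and this call held without each of the 12 libraries in turn. *Rpl41* differed by -0.43 (SE 0.10, adjusted p = 0.0292), *Rps26* by -0.40 (SE 0.08, adjusted p = 0.0138), and *Rpsa*, also known as the laminin receptor, by -0.37 (SE 0.09, adjusted p = 0.0257). Calls were lost in 8 of the 12 fits without a library for *Rpl41* and *Rpsa*, 5 for *Rpl24*, and 1 for *Rps26*. The count of 15 depended on single libraries. It was 2, 2, and 5 without PBS replicates 1, 2, and 3 of spleen, 2 and 3 without OVA NP replicates 1 and 2 of spleen, 3 and 4 without PBS replicates 1 and 3 of Peyer's patches, and 3 and 2 without OVA NP replicates 1 and 2 of Peyer's patches. It was 38 by DESeq2, for which the share of all genes called is not given here.

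**Figure D4:**
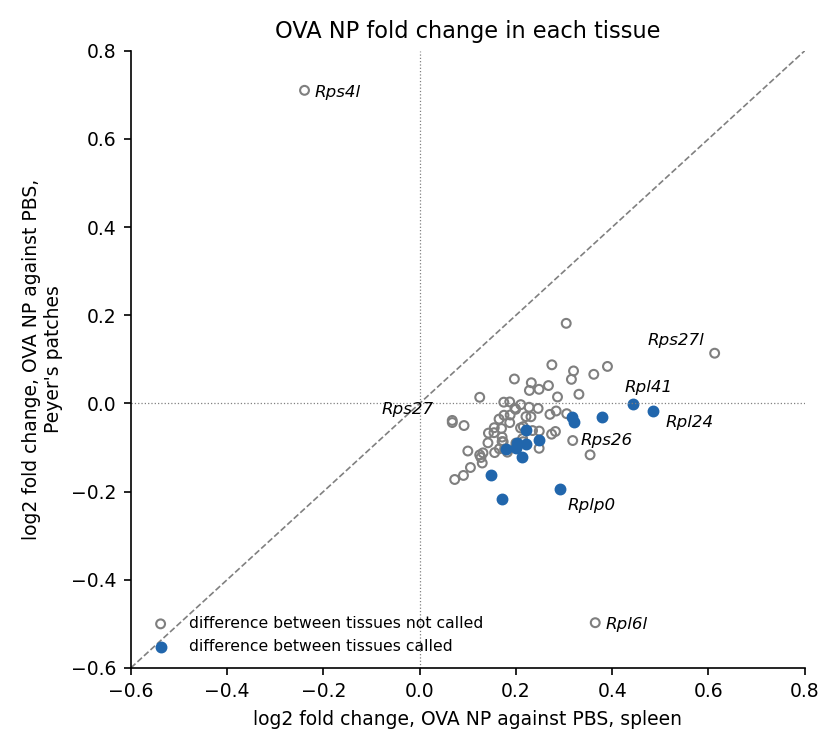
Log2 fold change of OVA NPs against PBS in spleen (x axis) and Peyer's patches (y axis) for 84 ribosomal protein genes, with the dashed line marking equal values. Filled points are the 15 members whose difference between tissues had an adjusted p under 0.05. All but 1 member, the pseudogene row *Rps4l*, lie below the line, and *Rplp0*, at 0.29 and -0.19, is among the farthest from it.

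For soluble OVA, 0 of 85 members were called for a difference between tissues by edgeR, with 6.84% of the 16541 genes tested called in either direction, 5.07% lower and 1.77% higher. Of the members' estimates, 81 of 85 were below 0. An unadjusted p under 0.05 was found for 4 members, and DESeq2 called 1. The median difference was -0.17 (all genes, -0.04), and the interval for *Rplp0* was -0.44 to 0.09.

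Peyer's patch and spleen B cells were compared within each treatment, with the libraries taken as unpaired. The labels do not say whether libraries of the same number in both tissues came from the same mouse, which also bears on the interaction tests. With a replicate block the OVA NP interaction count was 4. That block joined PBS and OVA NP libraries of equal number, which come from different mice, so it does not test pairing by mouse. With PBS, 4 of 84 members were called, 2 higher and 2 lower in Peyer's patches, although 45.6% of the 15463 genes tested were called in either direction. *Rps2*, at 39.3, 40.5 and 40 CPM in spleen and 48.5, 47 and 49.7 CPM in Peyer's patches, was higher by 0.30 (SE 0.07, adjusted p = 0.00383), with the uncertainty from its pseudogene rows. *Rpl22l1* was higher by 0.28 (SE 0.08, adjusted p = 0.0203) and *Rpl22* did not differ beyond its error (0.02, SE 0.06, adjusted p = 0.828). *Rps27* was 393, 334 and 391 CPM in spleen and 268, 293 and 332 CPM in Peyer's patches, lower, at -0.30 (SE 0.10, adjusted p = 0.0272), and *Rpl37a* was lower, at -0.25 (SE 0.06, adjusted p = 0.00838). The calls of *Rpl22l1*, *Rpl37a*, and *Rps27* were lost in 3, 4, and 4 of the 6 fits without a library, and the count was 2, 1, 2, and 12 without spleen replicate 1, spleen replicate 3, Peyer's patch replicate 1, and Peyer's patch replicate 3. *Rplp0* (0.10, SE 0.07, adjusted p = 0.22) and *Rps27l* (0.17, SE 0.10, adjusted p = 0.187) were not called.

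With soluble OVA, 36 of 84 members were called lower in Peyer's patches and 0 higher (24.3% of 15415 genes were called lower and 51.1% in either direction), and with OVA NPs 67 were called lower and 1 higher (15.1% of 15466 genes lower and 37.1% in either direction). The medians were -0.07 with PBS, -0.23 with soluble OVA, and -0.32 with OVA NPs, and the 3 comparisons use separate libraries. With soluble OVA, *Rps27* had the largest difference, 454, 378 and 361 CPM in spleen and 285, 241 and 257 CPM in Peyer's patches, or -0.61 (SE 0.10, adjusted p = 0.000768). *Rpl12*, at the base of the stalk, was lower, at -0.53 (SE 0.10, adjusted p = 0.00163), *Rps24* at -0.51 (SE 0.10, adjusted p = 0.00177), *Rps12* at -0.50 (SE 0.11, adjusted p = 0.00412), and *Rplp1*, a stalk protein, at -0.47 (SE 0.10, adjusted p = 0.00273). The count with soluble OVA was 17 without spleen replicate 1, 18 without Peyer's patch replicate 2, and 14 without Peyer's patch replicate 3. With OVA NPs, *Rps12* was 1133, 1107 and 1142 CPM in spleen and 735, 777 and 824 CPM in Peyer's patches, or -0.49 (SE 0.06, adjusted p = 0.000144). *Rplp1* (-0.48), *Rpl38* (-0.44), *Rpl32* (-0.44), and *Rpl12* (-0.44) followed, and none of the groups of these 5 members overlapped. The 1 member called higher was the pseudogene row *Rps4l*, with 0.802, 0.837 and 0.91 CPM in spleen and 2.39, 2.46 and 2.55 CPM in Peyer's patches (1.57, SE 0.29, adjusted p = 0.00226). The count with OVA NPs was between 63 and 67 without each library and 38 with an offset for gene length.

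The members moved together across libraries. Over the 18 libraries, 53 of the 84 tested members had a Pearson r above 0.9 between their log2 CPM and the mean of the other subunit and stalk genes, with *Rpl11* and *Rpl23* highest at 0.983. The lowest values were -0.366 for *Rps4l*, 0.111 for *Rpl22l1*, 0.406 for *Rps2*, 0.541 for the pseudogene row *Rps3a3*, and 0.566 for *Rps27l*, and the lowest of the other subunit genes were 0.631 for *Rpl28* and 0.68 for *Rps27*. These correlations describe 18 libraries of 6 groups and share their depth and scaling.

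Genes that make or serve ribosomes were counted from lists of the pathway. For these and the following lists, the shares of all genes tested that were called higher are the reference. They were 8.6% with OVA NPs in spleen, 10.5% with soluble OVA in spleen, and 13.5% with soluble OVA in Peyer's patches. With OVA NPs against soluble OVA in Peyer's patches, 16.3% of all genes were called lower and 13.8% higher. Called lower were 6.35% with OVA NPs and 6.72% with soluble OVA in spleen, and 13.9% with soluble OVA in Peyer's patches. Between tissues, 25.5%, 26.7%, and 22% of all genes were called higher in Peyer's patches in PBS, soluble OVA, and OVA NP mice. Of 5 other cytosolic ribosomal proteins outside the naming rule, 1 was called higher with OVA NPs in spleen (*Rpl36al*, an autosomal copy of *Rpl36a*, 0.31, SE 0.06, adjusted p = 0.0013) and 2 with soluble OVA (*Rpl36al* and *Rack1*, a signaling scaffold on the small subunit, 0.30, SE 0.07, adjusted p = 0.0113). Of 48 ribosome assembly factors, 10 were called higher with OVA NPs in spleen, 17 with soluble OVA in spleen, and 19 with soluble OVA in Peyer's patches, none were called lower, and the medians were 0.17, 0.17, and 0.20. *Npm1*, which encodes the nucleolar protein nucleophosmin, rose in spleen from 539 ± 22.2 to 721 ± 61 CPM with OVA NPs (0.43, SE 0.07, adjusted p = 0.000457). *Nhp2*, a subunit of box H/ACA particles, rose as well (0.41, SE 0.08, adjusted p = 0.00271), as did *Rpf2*, which helps 5S RNA join the large subunit (0.44, SE 0.08, adjusted p = 0.00133). In Peyer's patches *Npm1* rose with soluble OVA from 582 ± 28.4 to 845 ± 42.1 CPM (0.53, SE 0.07, adjusted p = 0.00088). Against soluble OVA, 23 of the 48 were called lower with OVA NPs in Peyer's patches, with a median of -0.30, among them *Rrs1*, a partner of Rpf2 (-0.59, SE 0.09, adjusted p = 0.002).

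Of 17 listed subunits and factors of RNA polymerase I, which transcribes rRNA, 14 were in the table. Only 1, *Polr1d*, was called higher with OVA NPs in spleen (0.33, SE 0.06, adjusted p = 0.00103), and 1 of 14 is not above the 8.6% of all genes. In spleen *Polr1d* was also the only one called with soluble OVA (0.47, SE 0.08, adjusted p = 0.00106), where 10.5% of all genes were called higher. The polymerase III enzyme shares this subunit. Of 16 elongation factors and other TOP mRNAs, 4 and 12 were called higher in spleen with OVA NPs and soluble OVA, with medians of 0.22 and 0.30, and 11 with soluble OVA in Peyer's patches with a median of 0.28. *Eef1b2*, an exchange factor for elongation factor 1A, was 417 ± 14 CPM with PBS and 509 ± 4.31 CPM with OVA NPs in spleen (0.29, SE 0.05, adjusted p = 0.00118). Of 29 initiation factors, 7, 8, and 16 were called higher in the same comparisons, and *Eif4e*, which binds the cap, rose in spleen from 52.6 ± 5.05 to 72.8 ± 1.91 CPM with OVA NPs (0.47, SE 0.07, adjusted p = 0.00026). Of 12 genes of Myc and mTOR signaling, 0 were called in spleen with either treatment, by the edgeR test, and with soluble OVA in Peyer's patches 2 were called higher and 1 lower. The lower one was *Myc*, at 157 ± 40.9 CPM with PBS and 82.9 ± 11.6 CPM with soluble OVA (-0.93, SE 0.20, adjusted p = 0.0181), and the higher ones were *Rps6kb1*, which encodes the kinase of ribosomal protein S6 (0.47, SE 0.07, adjusted p = 0.00121), and *Larp1*, which binds TOP mRNAs (0.28, SE 0.07, adjusted p = 0.0187). In Peyer's patches with OVA NPs against PBS, 0 genes of these lists were called.

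Cycling and germinal center genes moved in the same direction as the called members within each tissue, and in the opposite direction between tissues in soluble OVA and OVA NP mice. Of 18 such genes, 17 were called higher in spleen with OVA NPs and 18 with soluble OVA, and in Peyer's patches 17 with soluble OVA and 0 with OVA NPs against PBS. Their summed level in spleen ranged over 750.0 to 905 CPM with PBS, 1661 to 2110.4 CPM with OVA NPs, and 1813 to 2070.4 CPM with soluble OVA, and in Peyer's patches over 2947 to 3606, 2322 to 3436, and 6287 to 6599.8 CPM for the same treatments. In PBS mice all 18 were higher in Peyer's patches than in spleen, where the median of the members was -0.07 and 4 of 84 members were called. With soluble OVA 18 of 18 were called higher in Peyer's patches (median 1.55), where 36 of 84 members were called lower. With OVA NPs 10 of 18 were called higher there (median 0.54) and 67 of 84 members lower. In the test of the difference between tissues in the OVA NP effect, 17 of 18 were called lower in Peyer's patches (median -1.50). In that direction 15 of 84 members and 3.54% of all genes were called. For soluble OVA it was 5 of 18 (median -0.35), 0 of 85 members, and 5.07% of all genes. The part of these cells in the values of the members was not tested.

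The defining B cell genes were present in every library, with none of 8 at 0 in any group, and their summed level was 8403 to 10273 CPM in spleen and 5486 to 7531 CPM in Peyer's patches. Markers of other cells differed between the tissues: 4 epithelial genes summed to 148 to 683 CPM in Peyer's patches and 6.46 to 9.34 CPM in spleen, 9 T cell genes to 139 to 184 and 65.8 to 86.5 CPM, and 6 dendritic cell genes to 50 to 77.8 and 17.6 to 27 CPM. In soluble OVA mice most of the T cell sum was *Lck*, at 159 CPM in Peyer's patches and 77.5 CPM in spleen. Erythroid genes were higher in spleen, at 7.05 to 30.7 against 0.353 to 4.87 CPM. In PBS mice all 4 epithelial genes, 6 of 6 tested T cell genes, and 4 of 6 dendritic cell genes were called higher in Peyer's patches. Across all genes tested, 25.5% were called higher there. Within spleen, 0 of 4 tested T cell genes, 0 of 3 tested NK cell genes, and 0 of 4 tested monocyte and macrophage genes were called with OVA NPs against PBS. Calls were made for 2 of 8 B cell genes (*Blk* and *Fcer2a*, lower), 1 of 5 dendritic cell genes (*Itgax*, lower), 1 of 6 erythroid genes (*Slc4a1*, higher), and 1 of 3 stromal and endothelial genes (*Pecam1*, lower). With soluble OVA against PBS, 2 of 8 B cell genes were called lower in spleen and 4 of 8 in Peyer's patches, among them *Fcer2a* (-1.61, SE 0.12, adjusted p = 9e-05). In spleen, 2 of 4 tested monocyte and macrophage genes were called lower with soluble OVA (*Itgam*, -1.11, and *Adgre1*, -0.61) and 0 higher. Their list summed to 86.9 to 217 CPM with PBS, 35.5 to 77.8 CPM with soluble OVA, and 41 to 157 CPM with OVA NPs. Of 5 tested dendritic cell genes, *Itgax* was called lower (-0.96) and *Flt3* higher (0.97) with soluble OVA in spleen. Of the plasma cell genes, 2 of 5 tested were called higher with OVA NPs in spleen, and the list summed to 375 to 432 CPM with PBS and 600.1 to 618 CPM with OVA NPs. NK cell genes summed to 5.59 to 9.32 CPM in spleen and 14.5 to 45.4 CPM in Peyer's patches. These ranges were 35.5 to 217 and 111 to 275 CPM for monocyte and macrophage genes, and 1.95 to 3.32 and 1.36 to 5.01 CPM for platelet genes. Stromal and endothelial genes summed to 166 to 248 and 88.7 to 212 CPM. Most of this last sum was *Pecam1*, which in PBS mice averaged 237 CPM in spleen and 168 CPM in Peyer's patches. Of the 5 listed genes, 3 (*Pdgfrb*, *Col1a1*, and *Col1a2*) were called higher in Peyer's patches of PBS mice, and *Pecam1* lower. Between OVA NPs and soluble OVA in Peyer's patches, where 28 members were lower, 5 of 9 T cell, 6 of 8 tested monocyte and macrophage, 5 of 6 dendritic cell, and 2 of 8 B cell genes were called higher with OVA NPs, and 1 T cell gene (*Lck*) and 1 dendritic cell gene (*Flt3*) lower. The summed T cell level there was 163 to 184 CPM with soluble OVA and 139 to 148 CPM with OVA NPs. Most of this sum was *Lck*, at 159 ± 12.2 and 113 ± 9.1 CPM. The called *Cd3e*, *Cd3g*, and *Cd8a* rose from 1.57, 2.65, and 1.55 CPM to 5.1, 7.43, and 4.86 CPM, so the sum did not follow them. The part of these cells in the values of the members was not tested.

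Ribosomal protein genes are short, and other short genes had medians on the same side of 0 in the comparisons of treatments, but not between tissues in PBS and soluble OVA mice. The median exonic length was 1726 bases for the members and 3854 bases for tested genes. This length joins the exons of all annotated transcripts of a gene, so it can exceed the length of a single mRNA. Among other genes with a mean of at least 10 CPM, those of up to 1500 exonic bases had a median log2 fold change of 0.17 with OVA NPs in spleen, 0.21 with soluble OVA in spleen, and 0.23 with soluble OVA in Peyer's patches, compared with -0.03, -0.07, and -0.02 for genes above 6000 bases. The members' medians in these comparisons were 0.21, 0.32, and 0.16, so in Peyer's patches the short genes at large had the higher median. Between tissues, the genes of up to 1500 bases had medians of 0.10 with PBS and 0.11 with soluble OVA, where those of the members were -0.07 and -0.23, and with OVA NPs the values were -0.08 and -0.32. By this joined length the median member falls in the class of 1500 to 3000 bases. The medians of other genes in that class with OVA NPs and soluble OVA in spleen and soluble OVA in Peyer's patches were 0.04, 0.09, and 0.11. By the length of a single mRNA, members could fall in a shorter class. With an offset that removes the trend with length, 15 members were called with OVA NPs in spleen, with a median of 0.18, and 36 with soluble OVA, with a median of 0.24. Of the first 15, 13 were among the 22 called without it. The share of all genes called with the offset is not given here. The part of gene length in these values was otherwise not tested.

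**Figure D5:**
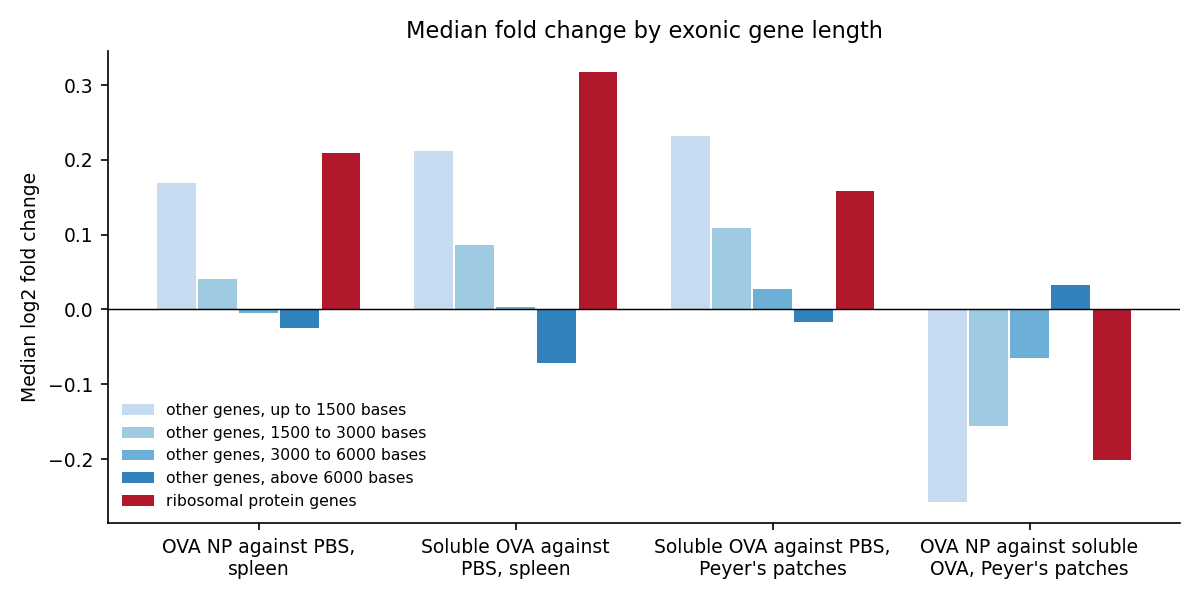
Median log2 fold change (y axis) of other genes in 4 classes of exonic length and of the ribosomal protein genes, in 4 comparisons (x axis). Other genes have a mean of at least 10 CPM. In both spleen comparisons the members' medians (0.21 and 0.32) exceed those of the shortest class (0.17 and 0.21), and in Peyer's patches they are nearer to 0 than those of the shortest class (0.16 against 0.23, and -0.20 against -0.26).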

How the data were processed

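Bulk RNA-Seq was analyzed for 18 B cell libraries, 3 in each of 6 groups set by the sample labels. The authors trimmed reads with Cutadapt 2.3, aligned them to GRCm38 (Ensembl 102) with STAR 2.7.8a, and deposited expected counts per gene from RSEM 1.3.3. All deposited values were whole numbers, and whether counting used strand is not given in the sources used here. The reference strain differs from BALB/cJ. Library totals ran from 14177253 to 30052297 counts, and intervals and limits from counts cover counting error only.

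Groups were compared by edgeR 4.0.16, run in R 4.3.3 (TMM, robust quasi-likelihood test, filterByExpr with a minimum count of 10 and a total of 15) in the 6 libraries of each of 9 comparisons, and in 12 libraries for 2 interactions, with Benjamini-Hochberg adjustment over all genes. A gene was called at an adjusted p under 0.05 and a log2 fold change above 0.25 in size, and for interactions at an adjusted p under 0.05. Shown CPM used TMM factors over all 18 libraries. Alternatives were DESeq2 1.42.0, other scaling and filters, a replicate block, a gene length offset, pseudogene rows added to their parents, and leaving out each library. The fits were tested on simulated data.

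Members named in the text were those called with the largest fold change and a mean of at least 1 CPM, up to 10 per direction for OVA NPs against PBS in spleen and up to 5 in other comparisons, plus *Rplp0*, *Rpl22*, *Rpl22l1*, *Rps27*, and *Rps27l* in both spleen comparisons with PBS, OVA NPs against PBS in Peyer's patches, and the tissues in PBS mice, and members under 1 CPM in every library by their counts. From the lists, up to 3 called genes per direction were named by the same rule. Others were chosen after their values were seen. The members and the 17 gene lists were chosen with earlier results of these data known. Positions came from GENCODE M21 on GRCm38, which matched 55227 of 55491 rows and all 89 members.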

Additional observations from a re-analysis of the deposited data

Results flagged for a closer look

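The effect of OVA NPs differed between spleen and Peyer's patches for 15 of 84 ribosomal protein genes in the edgeR interaction test, all with the lower effect in Peyer's patches, and it was this test of the difference itself that marked the result. Across all genes tested, 3.54% were called in that direction. The count ran from 2 to 21 when single libraries were left out.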

How the results depend on the processing

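Of 201 values of counts of called members or of shares under other settings, 158 stayed close to the reported value and 43 moved. A count taken as close could still differ by a moderate ratio, as with the gene length offset for OVA NPs in spleen. The 158 also include comparisons in which no member was called in either fit. Without the fold cutoff, 56 members passed with OVA NPs in spleen, 19 with soluble OVA in Peyer's patches, and 10 between tissues in PBS mice. The shares of all genes tested that passed in these comparisons were 20.1%, 28.5%, and 50.2%. With the gene length offset the counts were 36 for soluble OVA in spleen, 12 for OVA NPs against soluble OVA in Peyer's patches, and 38 between tissues in OVA NP mice. For soluble OVA in Peyer's patches the count was 20 with TMM without the members, 23 without a filter, 21 with at least 10 counts in every library, and 21 with pseudogene rows added. Without a filter it was 7 between tissues in PBS mice. For the tissue difference in the OVA NP effect it was 38 by DESeq2, 5 without a filter, and 4 with all 18 libraries in 1 fit, and for soluble OVA it was 1 by DESeq2 and 1 with at least 10 counts in every library. The cause was not tested. Most counts under other settings, here and above, are for members only. The share of all genes called under the same setting is not given beside them.

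Equal replicate numbers did not deviate together in every pair of any comparison (correlations from -0.306 to 0.299), so they were not taken as pairing. With the replicate block the counts were 21 and 53 in spleen with OVA NPs and soluble OVA, 6 with soluble OVA and 6 with OVA NPs against soluble OVA in Peyer's patches, 6, 37, and 68 between tissues with PBS, soluble OVA, and OVA NPs, and 4 for the tissue difference in the OVA NP effect.

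Leaving out single libraries gave 17 to 30 called members with OVA NPs and 28 to 74 with soluble OVA in spleen, and 6 to 27 with soluble OVA in Peyer's patches. It gave 16 to 39 for OVA NPs against soluble OVA in Peyer's patches, and 0 to 0 for OVA NPs against PBS there and against soluble OVA in spleen. Between tissues it gave 1 to 12 with PBS, 14 to 42 with soluble OVA, and 63 to 67 with OVA NPs. For the tissue difference it gave 2 to 21 for OVA NPs and 0 to 0 for soluble OVA.

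Among single genes, 991 of 1062 values kept direction and side of the threshold, 54 lost the call, 2 gained it, and 15 changed sign, all in members not called. The 991 include the values without the fold cutoff, which come from the main fit itself and could not change. With the length offset, *Rps27* went to -0.028 with OVA NPs and -0.0543 with soluble OVA in spleen, and *Rpl22* to 0.0132 and *Rpl22l1* to 0.0196 with OVA NPs in Peyer's patches. Without a filter, *Rpl22l1* went to 0.0064 in the latter comparison and *Rpl22* to -0.0197 between tissues in PBS mice, where it was -0.00133 with all 18 libraries in 1 fit. Leaving out single libraries gave -0.00881 to 0.118 for *Rps27* with OVA NPs in spleen, -0.0451 to 0.0198 for *Rpl22*, -0.108 to 0.0742 for *Rpl22l1*, and -0.107 to 0.0585 for *Rps27* with OVA NPs in Peyer's patches, and -0.0291 to 0.0418 for *Rpl22* between tissues in PBS mice.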
